A study of Mus musculus and Homo sapiens with 4 samples.

Results

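Narrow binding sites of Miz1 in the human cell line labelled MDA-MD-231 were described here, taken as the peaks of the deposited ChIP-seq list that were less than 253 bp wide. The members were thus chosen by width, the end of a peak minus its start, which is itself a measured value of this library. Of 2911 human peaks, 730 were narrow and 2173 were wider. The other 8 lay in an interval of chromosome 1 (hg19, chr1:16268364-16302627) that the rule leaves out, and served only as possible neighbours. The whole series held 3172 peaks in 2 lists.

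Chromatin immunoprecipitation followed by sequencing (ChIP-seq) recovers the DNA bound by a protein, and a peak is a stretch called enriched in the recovered reads. The MDA-MD-231 cells were grown with 10% fetal calf serum, and Miz1 was precipitated with the antibody G18 after crosslinking with 1% formaldehyde. The labels name no further treatment or genetic change of these cells. An input library of the same line and the mouse progenitor cells of the series were not used in the comparisons. There was 1 Miz1 library of this line, so no value has a replicate error, and its read depth is not known. Intervals treat peaks as units and cover counting error only. Both peaks of a close pair are counted, so intervals on neighbours are somewhat too tight.

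Miz1, encoded by ZBTB17, is a transcription factor with a POZ domain and a row of zinc fingers that bind DNA. It activates genes with its own cofactors and takes part in repression as a partner of the oncoprotein MYC, with cell cycle inhibitor genes among its best known targets. The series asked about its part in autophagy, the degradation of cell contents in lysosomes. No human annotation or sequence of the build was used here, so the gene, promoter, exon or motif under a peak is not given.

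The narrow peaks covered 149 kb in all. Their widths started at 87 bp and had a median of 211 bp, with quartiles of 182 and 233 bp. At most 200 bp was the width of 272 peaks. The smallest width, 87 bp, was shared by 6 peaks, and 19 peaks were at most 100 bp wide. Those 6 lay at chr11:64915946-64916032, chr14:98772347-98772433, chr19:35175078-35175164, chr7:65201818-65201904, chr8:7925177-7925263 and chrX:38835906-38835992, and their scores, in that order, were 216, 107, 230, 150, 171 and 107. None of them had another peak within 150 kb. At the other end, 10 narrow peaks had the largest width inside the limit, and 10 of the wider peaks had the smallest width outside it, 253 bp. The authors' score had a median of 182 in the former (106 to 511) and of 176 in the latter (102 to 648). Just inside the limit 0 of 10 peaks had another peak within 10 kb, and just outside it 2 of 10 did.

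The score is a deposited value that neither the list nor the labels define, and it comes from the same calling as the width. It therefore describes the narrow peaks and tests nothing. Their median score was 136 (quartiles 113 and 184), against 217 (quartiles 140 and 520) in the wider peaks. The lowest scores were 100 in the narrow and 100.04 in the wider peaks, and no peak of the list scored less. The lower narrow quartile thus lies near the bottom of the list, and weaker sites are not in it, as members or as neighbours. Scores under 200 were held by 573 of the narrow peaks (78.5%) and by 1010 of the wider ones (46.5%). The most frequent score of the list, 3100, was held by 154 wider peaks, and 2 more wider peaks were above it, the highest at 3225. A score of at least 3100 was held by 0 of 730 narrow peaks, which describes this list only. Within the narrow set score hardly moved with width (Spearman's rho = 0.05 over 730 peaks of 1 library), while rho was 0.36 over the wider peaks. The wider peaks run from 253 to 2961 bp, a far longer range of width, so these values of rho do not compare the sets. The narrowest class, from 87 to 150 bp, had a median score of 151. That was above the 125 of the peaks from 176 to 200 bp and the 140 of those from 226 bp up to the limit.

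**Figure D1:**
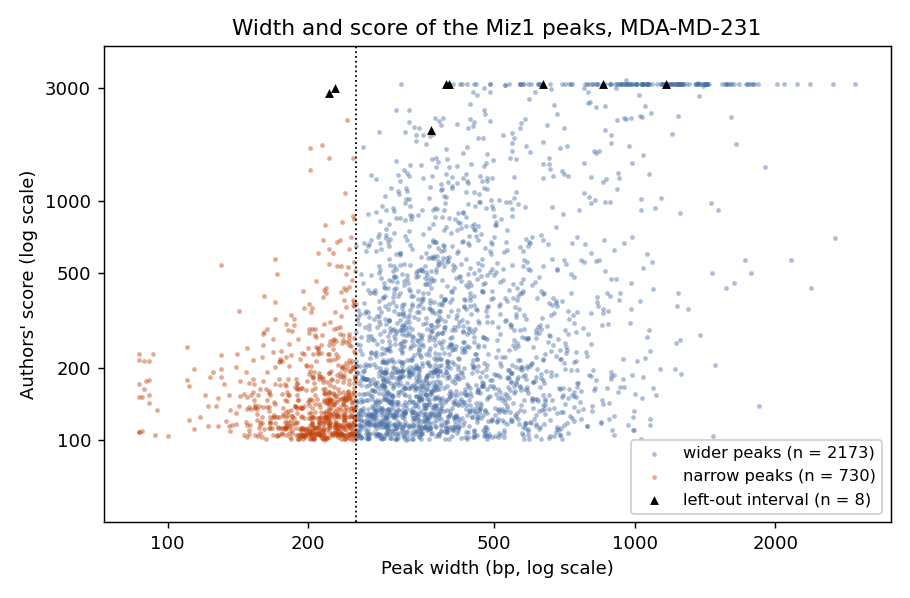
Each point is 1 peak of the human list, with its width in bp on the horizontal axis and the authors' score on the vertical axis, both on log scales. The dotted line marks the width limit, to whose left the 730 narrow peaks reach a score of 2201 at most, while 154 wider peaks sit at 3100 and 2 above it. Triangles are the 8 peaks of the left-out interval.

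A few narrow peaks carried high scores. The highest was 2201, at chr9:135413581-135413822, a peak of 242 bp. A score above 1000 was held by 7 narrow peaks (0.959%) and by 334 wider ones (15.4%). The remaining 6 were chosen for description after their scores were seen. Next came chr6:138026558-138026771 with a score of 1723, chr11:134821280-134821481 with 1682, chr4:185609630-185609878 with 1530 and chr14:58637885-58638106 with 1527. Both others were on chromosome 1, at chr1:163052888-163053089 with 1355 and at chr1:28975058-28975297 with 1085. None of these 7 sites had another peak within 10 kb, as held for 90.8% of all narrow peaks. The closest neighbour of any of them was 40.1 kb away, a wider peak beside the site on chromosome 4. The site on chromosome 14 had no other peak within 1190 kb. Of the 27 narrow peaks scoring above 500, 0 had a neighbour within 10 kb, which with so few peaks allows a share of up to 11.1%. The left-out interval also held 2 narrow peaks, of 221 and 228 bp, with scores of 2851 and 3002, each about 0.5 kb from the next peak of its block.

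Narrow peaks lay farther from other Miz1 peaks than wider peaks did. Spacing was measured between peak centres and was not used to choose the members. The median distance to the nearest other peak of any width was 199 kb for the narrow peaks (quartiles 61.4 and 653 kb) and 112 kb for the wider ones (quartiles 22.0 and 374 kb). Another peak lay within 10 kb of 67 narrow peaks, or 9.18% (95% Wilson interval 7.29 to 11.5%). The same held for 391 wider peaks, or 18.0% (16.4 to 19.7%), and for 16.0% of the whole list. The narrow share minus the wider share was -8.82 percentage points (95% Newcombe interval -11.3 to -6.03), which leaves out 0. At 100 kb the shares were 34.8% of the narrow and 48.0% of the wider peaks, where the whole list had 44.8% (difference -13.2 points, interval -17.2 to -9.10). At the far end, 123 narrow peaks (16.8%) had no other peak within 1 Mb, against 180 wider peaks (8.28%) and 10.4% of the whole list (difference 8.57 points, interval 5.74 to 11.7). The most isolated narrow peak, at chr2:140051671-140051819 (149 bp, score 173), was 5575 kb from the next.

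**Figure D2:**
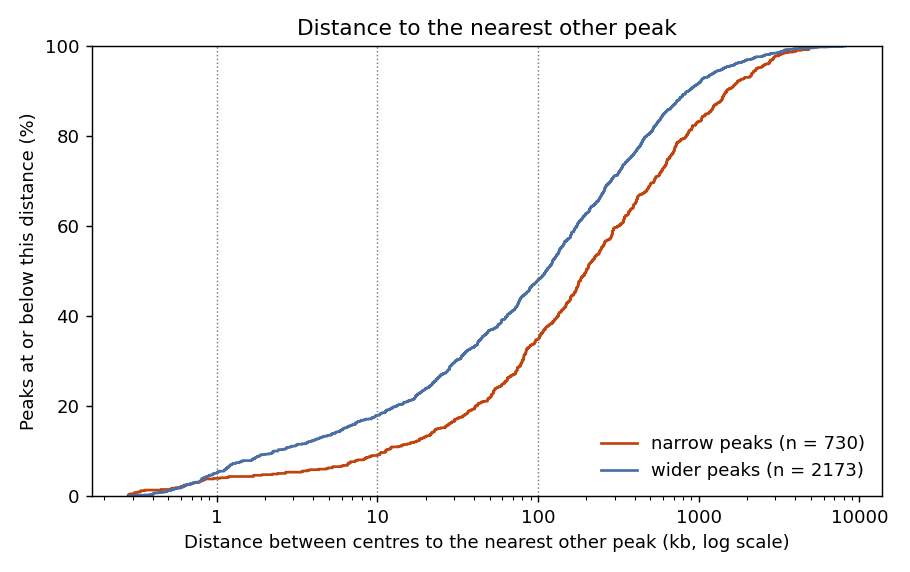
The horizontal axis is the distance in kb from the centre of a peak to the centre of the nearest other peak, on a log scale, and the vertical axis is the percent of each set at or below it. The line of the 730 narrow peaks runs below that of the 2173 wider peaks between about 1 kb and 1 Mb, with 9.18% against 18.0% at 10 kb and 34.8% against 48.0% at 100 kb (dotted lines at 1, 10 and 100 kb).

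The shares were also split by distance. Within 1 kb another peak lay beside 29 narrow peaks (3.97%) and 111 wider ones (5.11%), against 5.02% of the whole list. That difference was -1.14 points, and its interval of -2.70 to 0.74 holds 0. No peaks overlapped, so the width of a peak limits how near another centre can lie. The share within 1 kb therefore depends on the width that chose the members, and it cannot compare their spacing at this distance. Measured between facing ends, the difference at 10 kb was -9.00 points (interval -11.5 to -6.19). A nearest neighbour over 1 and up to 10 kb away was held by 38 narrow peaks (5.21%) and 280 wider peaks (12.9%), a difference of -7.68 points (interval -9.71 to -5.39). Neighbours were also counted by kind. A wider peak within 100 kb was found for 27.5% of narrow peaks and, as another peak, for 42.2% of wider peaks (difference -14.6 points, interval -18.4 to -10.7). A narrow peak within 100 kb was about as frequent from either side, at 12.1% and 12.4% (difference -0.37 points, interval -2.98 to 2.51).

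Width classes showed no step at the limit. The share with another peak within 10 kb was 8.96% from 87 to 150 bp, 6.25% from 151 to 175 bp and 4.80% from 176 to 200 bp, with overlapping intervals. It was 9.43% from 201 to 225 bp and 12.2% (8.68 to 16.9%) from 226 bp up to the limit. Just beyond the limit, from 253 to 300 bp, it was 11.0% (8.21 to 14.6%). The highest shares, 26.3% and 29.9%, were those of the 194 peaks from 702 to 1000 bp and of the 154 peaks above them. Against wider peaks of up to 500 bp alone the difference was -6.32 points (interval -9.02 to -3.41), a comparison added after the data were seen.

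**Figure D3:**
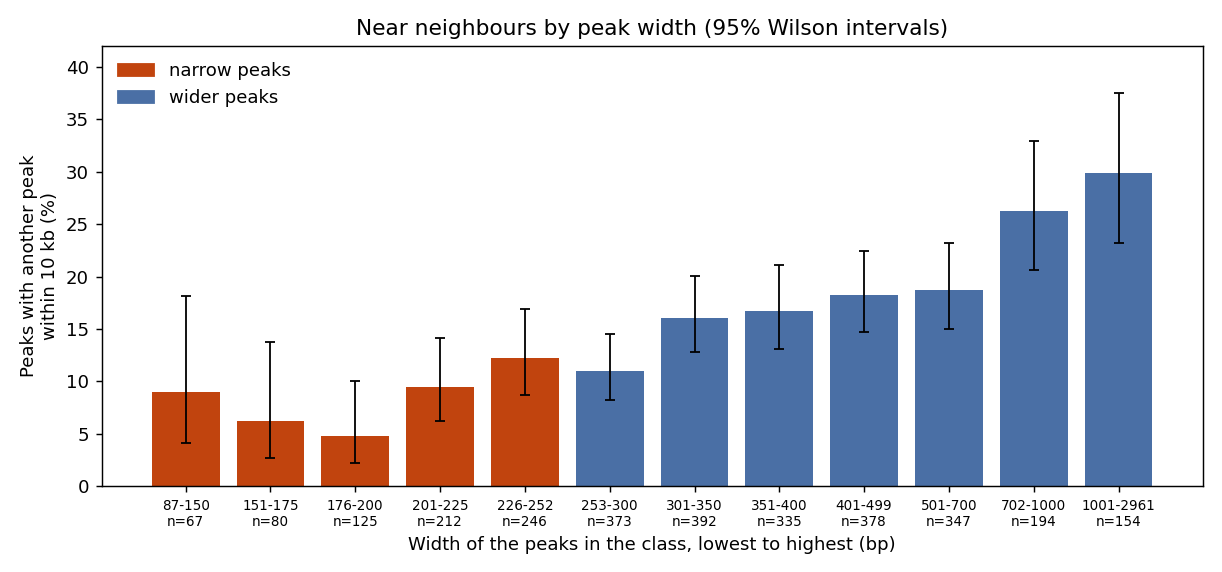
Bars give the percent of peaks with another peak within 10 kb in each class of width in bp, and error bars are 95% Wilson intervals with the number of peaks under each bar. The 5 narrow classes lie between 4.80 and 12.2%, the first wider class is at 11.0%, and the last class, above 1000 bp, is at 29.9%.

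Score moved with width, so the shares were also read within ranges of score. Among peaks scoring under the list's median of 185, another peak of any score lay within 10 kb of 8.53% of 551 narrow peaks and 17.3% of 904 wider peaks (difference -8.73 points, interval -12.0 to -5.22). Among the peaks at or above that median the shares were 11.2% of 179 and 18.5% of 1269 (difference -7.35 points, interval -11.8 to -1.52). In the 4 score ranges set by the quartiles of the list, from lowest to highest, the narrow shares were 7.72, 9.69, 13.0 and 4.88%, and the wider shares were 18.3, 16.4, 16.8 and 20.0%. In the third range the interval of the difference, -9.38 to 3.46 points, holds 0, and the top range had only 41 narrow peaks. When peaks under the median score were removed altogether, as neighbours as well, the shares were 8.38 and 11.4%. The difference of -3.05 points then had an interval of -6.78 to 2.20, which holds 0.

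For the 67 narrow peaks with another peak within 10 kb, the nearest neighbour was a wider peak in 57 cases (85.1%) and another narrow peak in 10. Wider peaks made up 74.9% of both sets together. A wider peak lay within 10 kb of 59 of these 67, and of 344 of the 391 wider peaks with any neighbour there, so this was not particular to narrow peaks. The nearest neighbour was wider than the narrow member in 62 of 67 cases and had the higher score in 53, counts that the choice of narrow members helps to set. The neighbours were 358 bp wide and scored 280 at the median, with 10 at a score of 3100. Between the facing ends the median distance was 1453 bp, and 33 of the 67 had under 1 kb between them. The closest case was on chromosome 1, where a narrow peak (chr1:209686289-209686509, score 129) ended 6 bp before a wider one of 336 bp and score 269. On chromosome 15 a narrow peak (chr15:79318029-79318244, score 130) stood beside a wider one of 368 bp and score 1515. The score of the member itself was about the same with and without a neighbour: the median was 138 for these 67 and 135 for the other 663. How the caller divided adjoining enriched stretches was not tested. With peaks less than 1 kb apart merged, 4.88% of 697 narrow and 11.3% of 2093 wider peaks had a neighbour within 10 kb (difference -6.40 points, interval -8.37 to -4.14). Merging came before the width limit was applied, so a narrow peak merged with its neighbour could leave the narrow set, which fell from 730 to 697. The lower narrow share after merging is thus partly set by this loss of members with a near neighbour.

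Another narrow peak lay within 10 kb of 12 narrow peaks (1.64%) and of 64 wider ones (2.95%), a difference of -1.30 points whose interval of -2.36 to 0.06 holds 0. In all, 6 pairs of narrow peaks had under 10 kb between them, and no run of narrow peaks was longer than 2. The tightest pair was chr5:169397935-169398182 (score 469) and chr5:169398253-169398425 (score 212), with 70 bp between its ends. A pair 95 bp apart was chr1:32814833-32815081 (score 202) and chr1:32815177-32815409 (score 105). The others spanned chr9:80326262-80329115, chr19:5354540-5359155, chr3:10233959-10240981 and chr1:85239753-85248419, with 2505, 4180, 6576 and 8316 bp between their ends in that order. A wider peak lay between the ends only in the pair on chromosome 19.

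Surroundings were compared over longer distances as well. Within 1 Mb on either side a narrow peak had a median of 2 wider peaks (quartiles 1 and 4), and a wider peak had 3 others (quartiles 1 and 6). None at all was found around 180 narrow peaks (24.7%) and 282 wider peaks (13.0%), a difference of 11.7 points (interval 8.35 to 15.2). At least 5 were found around 22.2% of narrow and 35.4% of wider peaks (difference -13.2 points, interval -16.7 to -9.47). Of fixed windows of 1 Mb, 1331 held a peak of any kind. Narrow peaks were in 598 of these, 329 times with wider peaks and 269 times with no peak of another kind. The most narrow peaks in a window was 5, at 28 to 29 Mb of chromosome 6 and at 19 to 20 Mb of chromosome 11, whereas wider peaks reached 18. These window counts depend on the size of the sets, 730 narrow against 2173 wider peaks, and do not compare their spacing.

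Narrow peaks were 25.1% of the list, and their part of its densest windows varied. The window at 49 to 50 Mb of chromosome 4, with 18 peaks, and that at 118 to 119 Mb of chromosome 11, with 13, had 0 narrow peaks each. Both were picked for their number of peaks, so these counts of 0 describe the windows and give no limit on a share. The 13 peaks at 44 to 45 Mb of chromosome 19 included 2 narrow ones. There were 4 among the 12 at 156 to 157 Mb of chromosome 1 and 3 among the 12 at 3 to 4 Mb of chromosome 6. The last of the 6 densest windows, at 16 to 17 Mb of chromosome 1, held 8 peaks of the left-out interval, 4 wider peaks and 0 narrow ones. Windows with at least 10 peaks held 17 narrow peaks (2.33%) and 85 wider ones (3.91%), a difference of -1.58 points (interval -2.83 to -0.03). These windows were picked by their number of peaks, most of them wider, so the choice itself favours wider peaks. The window on chromosome 4 alone gave 18 of the 85. The difference therefore describes these windows and does not compare the sets. Without the 6 densest windows the shares with a neighbour within 10 kb were 9.02 and 16.8%, a difference of -7.76 points (interval -10.3 to -4.99).

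Narrow peaks took a smaller share than wider peaks on chromosome 19 and, without allowance for the number of chromosomes read, on chromosome 17. Chromosome 19 held 25 narrow peaks, or 3.42% of the set (95% Wilson interval 2.33 to 5.01%). It held 148 wider peaks, or 6.81% (5.83 to 7.95%), and 5.94% of the whole list. The difference was -3.39 points (interval -4.96 to -1.52). Chromosome 17 held 4.79% of the narrow and 8.10% of the wider peaks, and 7.25% of the list (difference -3.30 points, interval -5.11 to -1.21). In the other direction, chromosome 3 held 46 narrow peaks, or 6.30%, against 3.91% of the wider and 4.50% of all peaks (difference 2.39 points, interval 0.60 to 4.52). Chromosome 5 held 50 narrow peaks, or 6.85%, against 4.79% of the wider and 5.29% of all peaks (difference 2.06 points, interval 0.17 to 4.29). It is textbook knowledge that chromosomes 17 and 19 are gene-rich, but whether gene density bears on these shares was not tested.

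The intervals of these 4 of 24 chromosomes left out 0 one at a time. With intervals widened for 24 chromosomes, only chromosome 19 kept 0 outside (-5.80 to -0.27 points). It did so in 3 of 6 alternatives, and no chromosome did in the other 3, which were a limit of 200 bp, the score minimum and wider peaks of up to 500 bp. The widened interval was -6.06 to 0.17 points for chromosome 17, -0.31 to 5.93 for chromosome 3 and -0.80 to 5.74 for chromosome 5. The next largest differences were 1.57 points on chromosome 10 and -1.74 points on chromosome 11, each with an interval that holds 0. Chromosome Y had 0 of 730 narrow and 2 wider peaks, and 0 of 730 allows a share of up to 0.411%. Below the list's median score chromosome 19 held 3.63% of narrow and 8.08% of wider peaks (difference -4.45 points, interval -6.78 to -1.95). At or above it the shares were 2.79 and 5.91%, with only 5 narrow peaks and an interval of -5.26 to 0.65 points. For chromosome 17 the differences were -2.84 points below the median score (interval -5.29 to -0.19) and -3.88 points at or above it (interval -6.62 to 0.45). For chromosome 3 they were 3.14 points (interval 0.93 to 5.69) and 1.73 points (interval -1.23 to 6.36). For chromosome 5 they were 1.26 points below the median score (interval -1.13 to 3.93) and 3.81 points at or above it (interval 0.32 to 8.90).

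**Figure D4:**
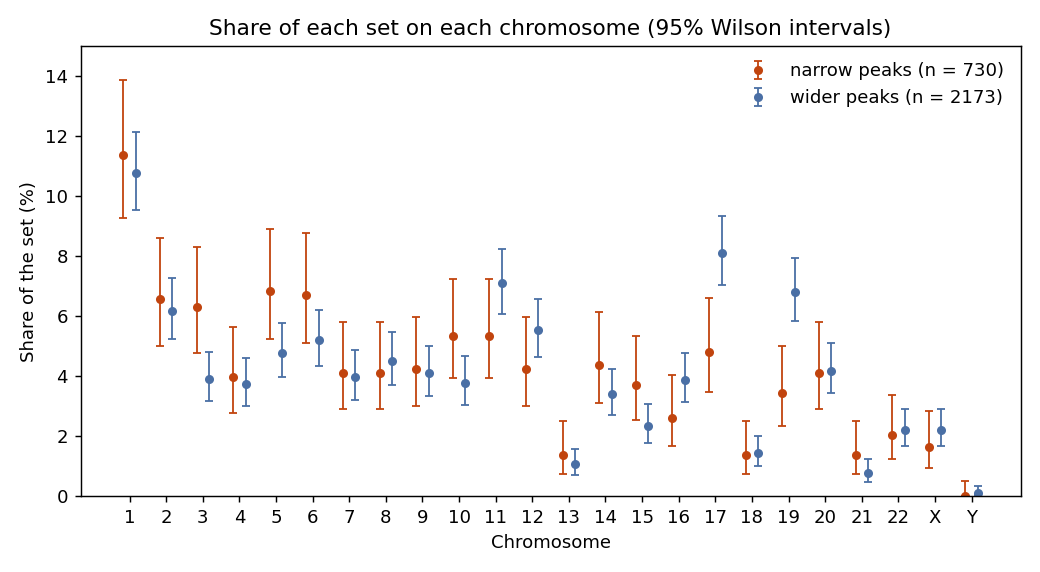
Points give the percent of the 730 narrow and of the 2173 wider peaks on each chromosome, with 95% Wilson intervals as error bars. The narrow share lies below the wider one on chromosomes 17 (4.79 against 8.10%) and 19 (3.42 against 6.81%) and above it on chromosomes 3 (6.30 against 3.91%) and 5 (6.85 against 4.79%), while on most others the error bars overlap widely.

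Seen by chromosome, 14.5% of the peaks of chromosome 19 were narrow (95% Wilson interval 9.98 to 20.5%) and 16.6% of those of chromosome 17 (12.2 to 22.2%). On chromosome 3 the share was 35.1% (27.5 to 43.6%). Density was counted per Mb from the first peak to the last, on the 23 chromosomes other than Y. For narrow peaks it ran from 0.08 on chromosome X to 0.48 on chromosome 20, and for wider peaks from 0.26 on chromosome 13 to 2.53 on chromosome 19. The coefficient of variation across chromosomes was 41.0% for narrow and 66.6% for wider peaks. Both densities nonetheless went together (Pearson's r = 0.78, Spearman's rho = 0.83 over 23 chromosomes). Without chromosomes 17 and 19 the values were 0.82 and 0.79 over 21. These coefficients describe 1 library, and both densities share its depth and the same spans. DNA copy number of the line was not analysed here.

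The spacing difference was also measured apart from these chromosomes. With chromosomes 17 and 19 left out, a neighbour within 10 kb was found for 9.25% of 670 narrow peaks and 17.4% of 1849 wider ones (difference -8.11 points, interval -10.8 to -5.16). On chromosome 17 alone 3 of 35 narrow peaks (8.57%) and 44 of 176 wider peaks had such a neighbour. On chromosome 19 the shares were 8% of 25 narrow and 17.6% of 148 wider peaks. They were close on chromosome 1, with 12 of 83 narrow peaks (14.5%) and 38 of 234 wider ones (16.2%). Chromosome 3 also had close shares, 13.0% of 46 and 15.3% of 85. The order was the other way on chromosome 5, with 5 of 50 narrow peaks (10.0%) and 6 of 104 wider ones (5.77%), counts too small to set apart. Other chromosomes were not read singly for this share.

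Toward the ends of the chromosomes the shares of both sets differed by less than their counting error. The stretch from the first to the last peak of the list on each chromosome was divided into 10 equal bins, bin 1 being the one at the lowest coordinates. The 2 end bins together held 209 narrow peaks (28.6%) and 605 wider peaks (27.8%), against 28.2% of the whole list. The difference of 0.79 points had an interval of -2.91 to 4.64, so a difference of a few points either way cannot be told from none. Both sets were fewest in bin 4 (6.16% of narrow and 6.76% of wider peaks). Narrow peaks were most frequent in bin 1 (14.9%) and wider peaks in bin 10 (15.1%). The interval of the difference left out 0 in 1 of 10 bins, bin 3, at 7.67 and 10.3% (difference -2.64 points, interval -4.82 to -0.16), without widening for the 10 read. With a score of at least the list's median required, the end bins held 35.2% of narrow and 28.2% of wider peaks, and the interval of -0.10 to 14.6 points holds 0.

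**Figure D5:**
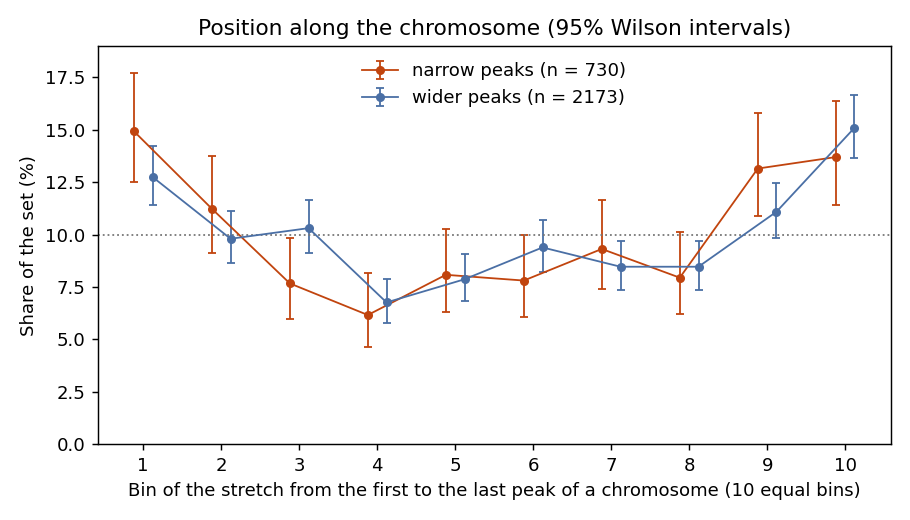
The horizontal axis is the bin, from 1 to 10, of the stretch from the first to the last peak of a chromosome, and the vertical axis is the percent of each set in it, with 95% Wilson intervals as error bars and a dotted line at 10%. Both sets dip to 6.16 and 6.76% in bin 4 and are highest toward the ends, at 14.9% of narrow peaks in bin 1 and 15.1% of wider peaks in bin 10.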

How the data were processed

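Miz1 ChIP-seq of the MDA-MD-231 line was deposited as 1 list of peaks with chromosome, start, end, name and score. The score is the authors' deposited value per peak, undefined in the list and not known to be scaled. Per the submitters' processing notes the tools were CASAVA, FastQC, Bowtie 0.12.7 and MACS 1.4.2, and the builds named include hg19 and GRCh37. What the settings were, and whether the input entered the calling, is not stated in the sources used here. Per the labels, DNA of about 200 bp was cut from a gel and amplified with 18 PCR cycles. Peak numbers ran without gaps and no peaks overlapped. Starts are printed counting from 1.

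Shares carry 95% Wilson intervals and differences 95% Newcombe intervals. Intervals widened for 24 chromosomes divide the error by that number. A limit on a count of 0 is 3 counts of the total. With 1 library no test was made. Calculations used Python 3.11.15, numpy 2.4.6 and pandas 2.3.3 and were tested on simulated lists. The members and measures were chosen with earlier results of these data known. Peaks to be named were those of the highest score, the narrowest, those at the width limit and the runs under 10 kb. The other peaks scoring above 1000, the most isolated, a pair beside wider peaks and those in the left-out interval were added after their values were seen. Chromosomes named were those whose interval left out 0 and the 3 highest and 3 lowest differences. Because 10 peaks tied on each side of the limit, all 20 are summarised. Alternatives were other width limits and distances, a score minimum and merging of close peaks. The planned results on gene starts, exons, motifs, base composition and gene lists were not run, because human annotation and sequence of this build were not used here.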

Additional observations from a re-analysis of the deposited data

How the results depend on the processing

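The narrow share with a neighbour, within 10 kb or the distance set by the alternative, stayed below the wider share in all 13 alternatives. The interval of the difference left out 0 in 11. These counts do not measure support. Within 1 kb and with neighbours of the same set, peak width or set size helps to fix the outcome. The difference lay outside the main interval in 4: -1.14 points within 1 kb, -3.05 with peaks under the median score removed as neighbours too, -13.2 within 100 kb, and -14.2 with neighbours of the same set only, where the sets differ in size by construction. The other 9 stayed between -11.3 and -6.03 points. Among these 9, the merging of close peaks also took narrow peaks with a near neighbour out of the narrow set. The median distance to the nearest peak moved from 199 to 251 kb for peaks of at most 200 bp, against 123 kb for those above 200 bp. With the score minimum, which leaves fewer peaks, it was 504 kb for the narrow and 258 kb for the wider peaks. The difference in the end bins moved to 6.98 points with the score minimum, and the interval held 0 in all 6 alternatives. The number of chromosomes off 0 ran from 3 to 6. Chromosome 5 kept 0 outside in 3 of 6 alternatives, and chromosomes 3, 17 and 19 each in 5. With the score minimum the chromosomes off 0 were 5, 13 and 15. With intervals widened for 24 chromosomes, chromosome 19 kept 0 outside in 3 of 6 alternatives. The facing-end distances, score ranges, 500 bp limit and removal of the 6 densest windows or of chromosomes 17 and 19 were chosen after the data were seen. Read depth is unknown, so missed weak sites cannot be counted. No paired analysis was possible because there is 1 Miz1 library of this line.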
